A study of Danio rerio with 3 samples.

Results

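The genes described here build, transfer and remove ubiquitin in zebrafish (Danio rerio) embryos, and their transcripts were compared between embryos injected with MO-grnA and wild-type embryos. Members were the probes whose accession maps to a RefSeq symbol that begins with ube2, uba and a digit, cul and a digit, fbxo, fbxl, fbxw, usp and a digit, uchl or otud. The array carried 158 such probes for 108 genes, out of 11668 named genes in all, and 96 of the 108 genes could be tested, out of 9227 named genes. They fall into the E1 (3 tested), E2 (28), cullin (4), F-box (38), USP (17), UCHL (2) and OTU (4) classes.

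MO-grnA is an antisense morpholino oligomer against granulin A, a zebrafish relative of progranulin. Injected embryos received 2 to 3 nl at the 1-cell stage, the wild-type embryos had no treatment, and both were whole embryos collected at 22 hours post fertilization, 200 per group in each of 3 biological replicates. Each 2-colour array held the morphant RNA and the wild-type RNA of 1 replicate, with the dyes swapped on replicate 3. Because the wild-type embryos were not injected, the ratio holds any effect of injection too, and a change in whole embryos cannot tell fewer cells of a type from less RNA per cell.

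Ubiquitin is a small protein that cells attach to other proteins. An E1 enzyme activates it, an E2 enzyme carries it, and an E3 ligase brings the loaded E2 to a substrate. Cullins are the scaffolds of a large ligase family. Cullin 1 binds F-box proteins, cullin 3 binds adaptors with a BTB domain and cullin 4 binds DCAF adaptors, and the adaptor chooses the substrate. A cullin works only once the ubiquitin-like protein NEDD8 is attached to it. Deubiquitinases of the USP, UCHL and OTU families take ubiquitin off again. In a segmenting embryo such ligases time cell division and clear regulators that are no longer needed.

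Values are log2 ratios of morphant over wild type with a moderated standard error (SE) over 3 arrays. A gene "rose" or "fell" where it passed an adjusted p of 0.05 in limma, with the adjustment over all 25066 tested probes. The brightest tested probe stands for a gene. The number of spots clearly over background per array was 28635 to 31551 for morphant RNA and 28822 to 31010 for wild-type RNA. The log2 ratios of the arrays correlated at r = 0.82 to 0.85 across tested probes, which are not independent replicates. Replicate 1 lay on another slide than replicates 2 and 3, and 7.49% of its spots carried an outlier mark, against 0.915% and 0.909%. Of 21 tissue markers of the embryo (muscle, notochord, neurons, blood, vessels, kidney, skin, neural crest, hatching gland and egg), 16 were tested and all 16 were above background in both RNAs on every array. Of these, 3 rose (mylpfa and actc1b of muscle and hbae3 of blood) and 7 fell. Within a tissue they could differ, with skin genes cdh1 at -1.32 (fell) and krt4 at 0.19 (not passed) and blood genes hbae3 at 0.37 (rose) and gata1a at -0.17 (not passed). Both egg genes fell (zp2.1 by 0.66 and zp3b by 0.60). Both kidney genes fell too (pax2a at -0.64 and cdh17 at -0.38), as did tbxta of notochord (-0.61) and sox10 of neural crest (-0.60). The part of tissue content in the results that follow was not tested. The grna transcript itself had ratios of 0.19, 0.34 and 0.39 on replicates 1, 2 and 3 and rose by 0.31 (SE 0.08, adjusted p = 0.0227), a call that ended without replicate 2 (0.29, adjusted p = 0.107) or replicate 3 (0.26, adjusted p = 0.109). A morpholino need not lower its transcript, so this does not check the labels.

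Most ubiquitin genes moved little, and a few F-box genes fell by 2-fold or more. Of the 96 tested members, 16 rose and 18 fell. The called share was 35.4%, against 41.3% of all named genes. Rises made up 16.7% of members, against 19.3% of all named genes, and falls 18.8%, against 22.0%. The median ratio was 0.01 over members and -0.00077 over all named genes, and the median size of a ratio, sign set aside, was 0.18 over members and 0.22 over all named genes. All 34 called members had the same sign on the 3 arrays, as did 3805 of the 3810 called named genes. A shared sign is close to a condition of the call, so it adds no separate support. Without replicate 1, 15 rose and 14 fell. Without replicate 2 the counts were 9 and 14, and without replicate 3, the dye swap, 8 and 15. The called share was then 30.2%, 24% and 24% of members, against 36.6%, 30.5% and 27.7% of all named genes. With each array centred on its median in place of loess, 0 rose and 3 fell (fbxo32, fbxo44.9 and fbxo6.3), against 5 and 6 at an unadjusted p under 0.05 in limma, and 2.87% of all named genes were called.

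**Figure D1:**
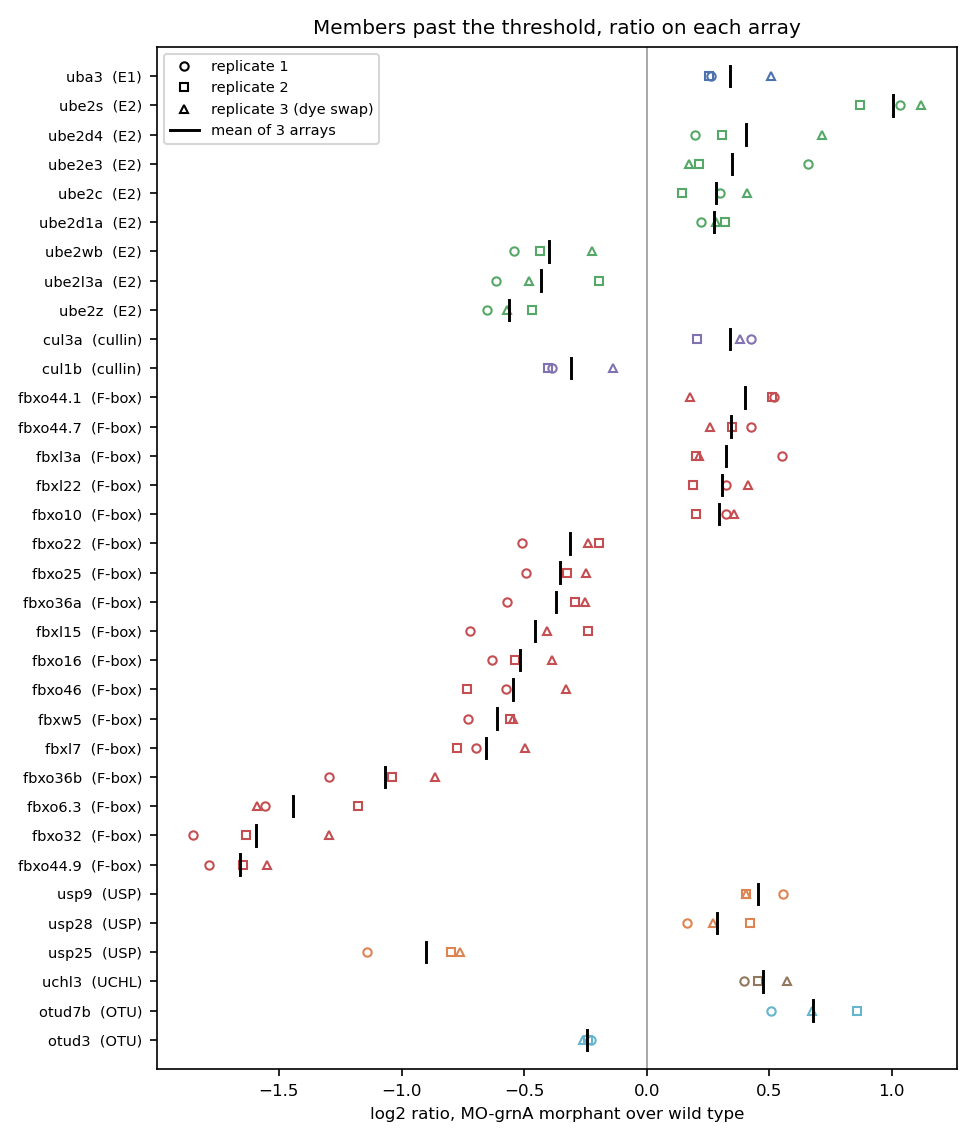
Log2 ratio of morphant over wild type on each of the 3 arrays (open symbols) and its mean (black bar) for the 34 members past the threshold, with the class in parentheses. All 3 arrays of every gene lie on the same side of 0, and 4 F-box genes and 1 E2 gene reach a mean of 1 or more in size.

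The called genes of each class were split as follows. F-box genes had 12 falls and 5 rises among 38, that is 31.6% lower and 13.2% higher, against 22.0% and 19.3% of all named genes. Their called share was 44.7%, against 41.3% of all named genes. E2 genes had 3 falls and 5 rises among 28, and the 3 deubiquitinase classes together had 2 falls and 4 rises among 23. The called share was 28.6% of E2 genes, 26.1% of these deubiquitinase genes and 17.6% of the USP class alone. Of the 5 members called at 2-fold or more, 4 were F-box genes that fell and 1 was an E2 gene that rose. Among all named genes 4.17% changed that far, with 2.53% lower and 1.65% higher.

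Class medians lay close to 0 in the large classes. They were 0.04 for E2, -0.01 for F-box and -0.02 for USP genes, and per array the F-box median was -0.09, 0.00114 and -0.02 on replicates 1, 2 and 3. The E2 median was 0.07, -0.02 and 0.08 on those arrays. The small classes had medians of 0.34 (E1), 0.21 (UCHL), 0.10 (cullin) and -0.11 (OTU), each over 2 to 4 genes. Strong falls in the F-box class thus stood beside a class median near 0. By name prefix, its medians were -0.14 over 24 fbxo, 0.20 over 9 fbxl and -0.06 over 5 fbxw genes. The 4 falls of 2-fold or more were all fbxo genes. Differences between classes, or between prefixes within a class, were not tested.

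**Figure D2:**
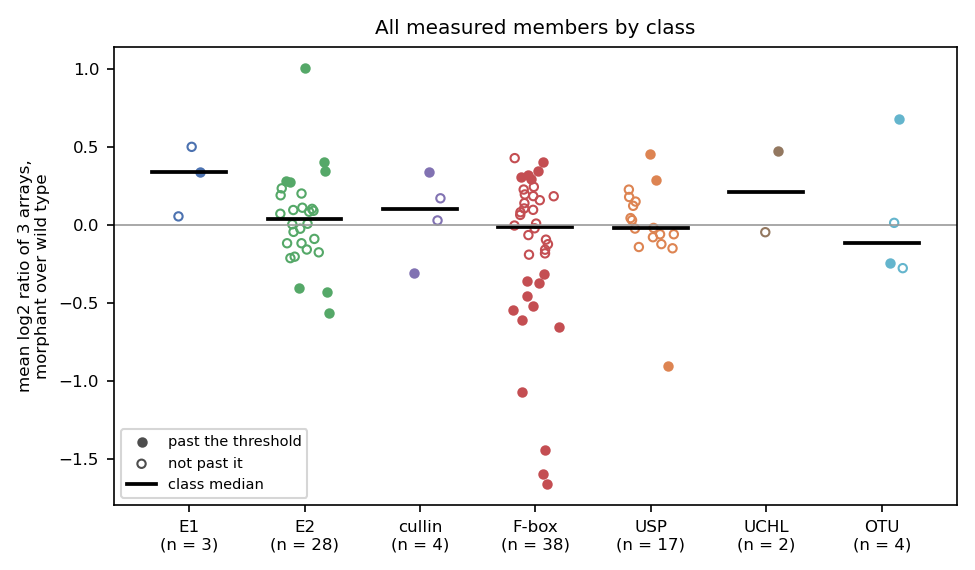
Mean log2 ratio over 3 arrays of each of the 96 tested members by class, filled where the gene passed the threshold, with the class median as a bar. The 4 lowest points are F-box genes between -1.66 and -1.07, and the class medians of E2, F-box and USP genes lie at 0.04, -0.01 and -0.02.

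Activation of ubiquitin and NEDD8 is described for 2 genes with the uba prefix. The gene uba3, which encodes the catalytic subunit of the NEDD8 E1, had ratios of 0.26, 0.26 and 0.51 and rose by 0.34 (SE 0.09, adjusted p = 0.0189). Its normalized log2 levels were 11.58, 11.72 and 11.76 in morphants, against 11.32, 11.46 and 11.26 in wild type, so the groups did not overlap. The call ended without replicate 3 (0.26, adjusted p = 0.102). The main ubiquitin E1 gene uba1 had 0.21, -0.05 and 0.00 on a dim probe (mean 0.06, adjusted p = 0.653). A brighter uba1 probe was left out because its spot was marked on replicate 2, and it gave -0.84 and -0.43 on replicates 1 and 3. With marked spots kept, that probe stood for the gene, and uba1 was then lower in morphants (-0.50, adjusted p = 0.0190), so its direction depends on the probe.

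Among F-box genes, fbxl3b, related to the clock regulator fbxl3a, changed sign on the dye swap. Its ratios were 0.93, 0.94 and -0.58, with a mean of 0.43 that did not pass (SE 0.27, adjusted p = 0.240), and it passed without replicate 3 (0.93, adjusted p = 0.00541). The probe was bright, at a mean log2 intensity of 16.5, and its red channel was brighter than the green on every array. The dye coefficient was 0.76, and a second, dimmer probe gave -0.33. In all, replicate 3 opposed both other arrays in 18 members, 18.8%, against 14.0% of all named genes.

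Among E2 genes the clear rise was ube2s, whose product lengthens ubiquitin chains for the anaphase-promoting complex, the ligase that ends mitosis. Its levels were 13.41, 13.64 and 13.78 in morphants, against 12.38, 12.77 and 12.66 in wild type. The groups did not overlap and the gene rose by 1.01 (SE 0.09, 2.01-fold, adjusted p = 1.1e-04). Its partner ube2c, which starts those chains, had ratios of 0.30, 0.14 and 0.41 and rose by 0.28 (SE 0.09, adjusted p = 0.0362). Leaving out replicate 1, 2 or 3 ended the ube2c call (adjusted p = 0.0564, 0.0537 and 0.161), while that of ube2s held in each case.

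Of the ube2d genes, E2 enzymes that serve many ligases, 2 of 6 rose and 0 fell, with 1 lower at an unadjusted p under 0.05 in limma. Their called share was 33.3%, against 41.3% of all named genes. The gene ube2d4 rose by 0.41 (SE 0.11, adjusted p = 0.0233) with an uneven 0.20, 0.31 and 0.71, and its levels overlapped between the groups because replicate 1 was low in both RNAs. The gene ube2d1a rose by 0.27 (SE 0.08, adjusted p = 0.0292) with an even 0.22, 0.32 and 0.28, while its paralog ube2d1b stood at 0.10 (adjusted p = 0.374). Probes of ube2d2 disagreed, with the 2 brightest at -0.21 and -0.20 and the third at 0.56, the last of which passed (adjusted p = 0.00698). The fifth rise was ube2e3, at 0.35 (SE 0.11, adjusted p = 0.0398), of which replicate 1 gave 0.66 and the others 0.22 and 0.17. Without replicate 3 the calls of ube2d4 (adjusted p = 0.115), ube2d1a (0.0990) and ube2e3 (0.0744) ended, and so did that of ube2d1a without replicate 2 (0.153) and that of ube2e3 without replicate 1 (0.19, adjusted p = 0.169) and with marked spots kept (0.08, adjusted p = 0.483).

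Of the E2 genes 3 fell. The gene ube2z, an E2 that in mammals is loaded by a second ubiquitin E1, UBA6, had levels of 11.44, 11.40 and 11.36 in morphants, against 12.10, 11.87 and 11.93 in wild type. It fell by 0.56 (SE 0.08, adjusted p = 0.00150), with no overlap and little spread in morphants. The gene ube2l3a, an E2 of HECT and RBR ligases, had -0.61, -0.19 and -0.48 and fell by 0.43 (SE 0.10, adjusted p = 0.0120), while a second probe, marked on replicate 1, gave -0.06 and 0.10 on replicates 2 and 3. Its call ended without replicate 3 (-0.40, adjusted p = 0.0827). Its paralog ube2l3b had 0.19 (adjusted p = 0.144). The gene ube2wb, which can tag the amino end of proteins, fell by 0.40 (SE 0.09, adjusted p = 0.0110), but its other probes gave -0.09 and -0.07 and the mean of the 3 did not pass (-0.19, adjusted p = 0.0784). The other 20 tested E2 genes did not pass and lay between -0.21 and 0.24 by their brightest tested probe. For ube2r2, an E2 that works with cullin ligases, that probe was dim (0.00472, adjusted p = 0.971). A brighter ube2r2 probe, marked on replicate 2, gave -1.17 and -1.21 on replicates 1 and 3, and with the marked spot kept ube2r2 was lower in morphants (-1.28, SE 0.09, adjusted p = 7.2e-05), so its value depends on the probe. The SUMO E2 genes ube2ia (0.01) and ube2ib (0.07) were among them, as was ube2f (-0.09), an E2 for NEDD8.

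Cullin genes moved both ways by small amounts. The gene cul3a, scaffold of the BTB ligases, had ratios of 0.43, 0.21 and 0.38 and rose by 0.34 (SE 0.09, adjusted p = 0.0167), with levels of 13.76, 13.74 and 13.73 in morphants, against 13.33, 13.53 and 13.35 in wild type. A second cul3a probe, marked on replicate 1, gave -0.18 and -0.06 on replicates 2 and 3. The gene cul1b, scaffold of the F-box ligases, had -0.38, -0.40 and -0.14 and fell by 0.31 (SE 0.09, adjusted p = 0.0286). Its paralog cul1a had 0.21, 0.22 and 0.08 (mean 0.17, adjusted p = 0.136). Of the other 3 cul1b probes 1 also fell (-0.31) and the others gave -0.12 and 0.07. The cul4b ratio was 0.03 (adjusted p = 0.860) and was uneven, with 0.33, -0.21 and -0.03. A dimmer cul4b probe gave -0.15 (adjusted p = 0.328). A brighter cul4b probe, marked on replicate 1, gave -0.13 and -0.17 on replicates 2 and 3. With the marked spot kept it gave -0.28 and did not pass (adjusted p = 0.0679).

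The cullin calls were weak. That of cul3a ended without replicate 3 (0.32, adjusted p = 0.0861), and that of cul1b when replicate 1 (-0.27, adjusted p = 0.0605) or replicate 2 (-0.26, adjusted p = 0.153) was left out, or with the mean of its probes (-0.17, adjusted p = 0.102). The fifth cullin gene on the array, cul4a, was not tested because its spot was marked on replicate 1. It gave -0.83 and -0.89 on replicates 2 and 3, and -0.63 (adjusted p = 0.0111) with the marked spot kept, whose own value was -0.18.

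F-box genes held the largest falls. The gene fbxo44.9 had levels of 8.10, 7.97 and 7.99 in morphants, against 9.88, 9.61 and 9.53 in wild type, and was 3.16-fold lower in morphants (log2 ratio -1.66, SE 0.09, adjusted p = 1.1e-05). The gene fbxo6.3 had 8.40, 8.39 and 8.29 in morphants, against 9.96, 9.57 and 9.88 in wild type, and was 2.72-fold lower (-1.44, SE 0.10, adjusted p = 4.4e-05). In both, the morphant levels lay far below every wild-type level. Their mammalian relatives FBXO2 and FBXO6 bind glycoproteins for disposal.

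The fbxo2, fbxo6 and fbxo44 genes did not move as a family. Of 7 tested, 2 rose, 2 fell and 3 did not pass, a called share of 57.1%, against 41.3% of all named genes. The gene fbxo44.1 had 0.52, 0.51 and 0.18 and rose by 0.40 (SE 0.10, adjusted p = 0.0138), although a second probe gave -0.16 and the mean of both was 0.12 (adjusted p = 0.218). The gene fbxo44.7 had 0.43, 0.35 and 0.26 and rose by 0.34 (SE 0.08, adjusted p = 0.0131), with a single probe. Both calls ended without replicate 2 (0.35, adjusted p = 0.0725 for fbxo44.1 and 0.34, adjusted p = 0.0629 for fbxo44.7). The ratios of fbxo44.5 (0.18), fbxo6.2 (0.24) and fbxo2 (0.06) did not pass. The fbxo6.2 probe was dim, and in wild-type RNA it was well above background on only 1 array. In the RefSeq gene table all of these except fbxo2 lie on a single chromosome, where fbxo44.7, fbxo44.8 and fbxo44.9 are direct neighbours and so are fbxo6.2, fbxo44.5 and fbxo6.3. Each of these sets thus held a gene that fell strongly and a tested gene that did not. The gene fbxo44.8, which lies between fbxo44.7 and fbxo44.9, was not on the array. Of another pair of neighbours, fbxo44.1 and fbxo44.3, only fbxo44.1 was on the array. Probes to closely related copies may share signal, which was not tested because no probe or transcript sequence was used here.

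The gene fbxo32, known as atrogin-1 in mammals, where it marks wasting muscle, had levels of 7.67, 7.75 and 8.08 in morphants, against 9.53, 9.39 and 9.37 in wild type. It was 3.02-fold lower in morphants (-1.59, SE 0.11, adjusted p = 4.3e-05), with no overlap. Of the muscle markers, the contractile genes mylpfa (0.35, adjusted p = 0.0114) and actc1b (0.44, adjusted p = 0.00772) rose. The muscle marker myog, a regulator of muscle differentiation, had -0.08 (adjusted p = 0.468). The part of muscle content in the fbxo32 ratio was not tested.

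The gene fbxo36b had levels of 8.27, 8.02 and 8.48 in morphants, against 9.56, 9.06 and 9.34 in wild type, and was 2.09-fold lower (-1.07, SE 0.10, adjusted p = 1.8e-04). Its second probe gave -0.94, and its paralog fbxo36a fell by 0.37 (SE 0.09, adjusted p = 0.0163), so both copies were lower. The gene fbxl7 had -0.70, -0.77 and -0.50 and fell by 0.66 (SE 0.09, adjusted p = 9.99e-04). For fbxw5 the brightest probe fell by 0.61 (SE 0.08, adjusted p = 0.00107), another rose by 0.24 (adjusted p = 0.0477) and the third gave -0.14. It was the only 1 of 21 members with several tested probes whose probes were called in opposite directions, and it has no settled direction (mean of its probes -0.17, adjusted p = 0.0910). The other falls were fbxo46 (-0.55, second probe 0.03), fbxo16 (-0.52), fbxl15 (-0.45), fbxo25 (-0.36, or -0.65 by a brighter probe with marked spots kept) and fbxo22 (-0.31). These, and the E2, F-box and USP genes named here that did not pass, were chosen for mention after their values were seen.

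**Figure D3:**
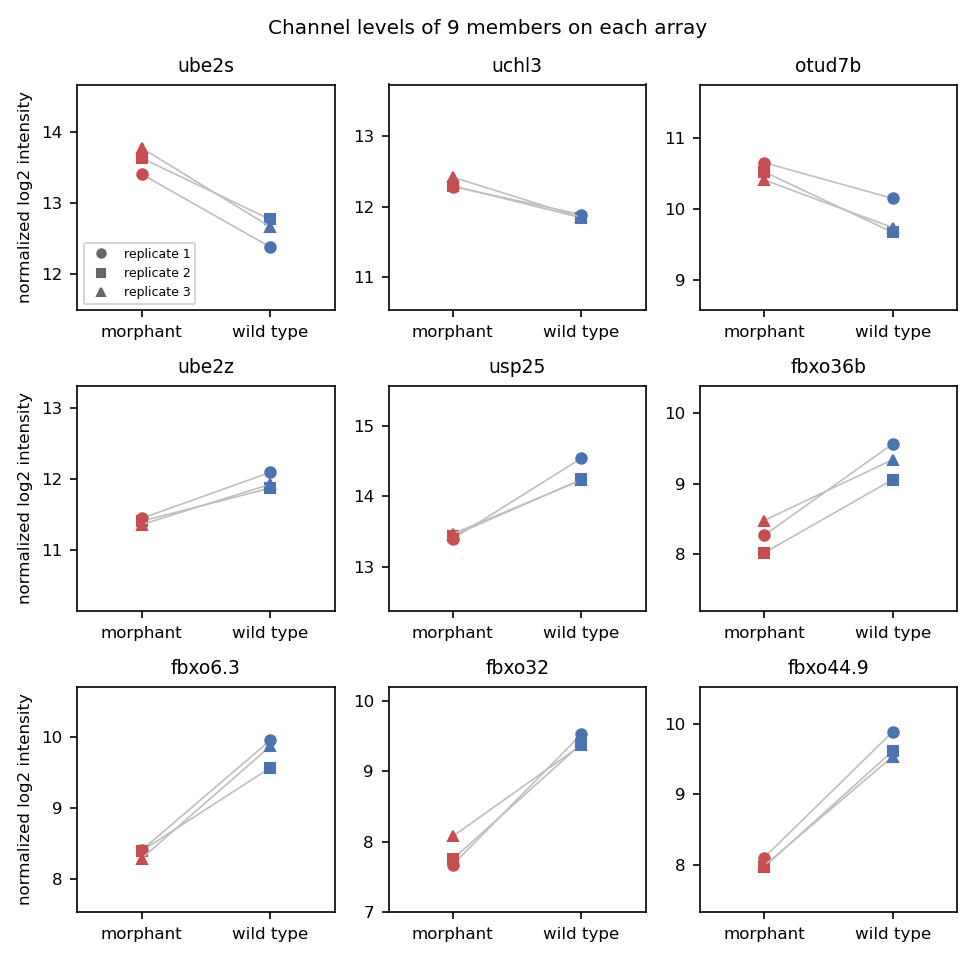
Normalized log2 intensity of the morphant (left) and wild-type (right) channel on each array for 9 members, with grey lines joining the channels of an array and the same axis span of 3.2 units in every panel. Levels of 1 panel are not comparable with those of another. The 9 shown all passed the threshold, and in none of them do the channels overlap. Channels did not overlap in 76.5% of called members and 40.7% of all named genes.

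The rises among F-box genes were small. Besides the fbxo44 genes they were fbxl3a, which helps remove cryptochromes of the circadian clock, at 0.32 (SE 0.10, adjusted p = 0.0333), fbxl22, a sarcomere protein in mammals, at 0.31 (SE 0.09, adjusted p = 0.0236), and fbxo10 at 0.29 (SE 0.08, adjusted p = 0.0248). The fbxl3a call ended with any array left out (without replicates 1, 2 and 3 the adjusted p was 0.139, 0.0505 and 0.0807), that of fbxl22 without replicate 3 (0.115), and that of fbxo10 without replicates 2 (0.0607) and 3 (0.107). Among the falls, the calls of fbxo22 (adjusted p = 0.120, 0.0501 and 0.0848 without replicates 1, 2 and 3), fbxo36a without replicate 1 (0.0511), fbxo25 without replicate 2 (0.0508) and fbxl15 without replicate 3 (0.0670) ended too. The probes of fbxo10 and, among the falls, of fbxo16 and fbxo36a were dim, at mean log2 intensities of 6.91, 7.06 and 7.21. Across settings their ratios ran from 0.26 to 0.60, from -1.09 to -0.46 and from -0.87 to -0.27, in that order. Of the genes whose products restrain the anaphase-promoting complex, fbxo5 had -0.12 (adjusted p = 0.431) and fbxo43 had -0.19 (adjusted p = 0.221).

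Deubiquitinase genes of the USP class were mostly near 0, and 14 of 17 did not pass. The exception in size was usp25, with levels of 13.40, 13.44 and 13.47 in morphants, against 14.54, 14.24 and 14.23 in wild type. It was 1.87-fold lower in morphants (-0.90, SE 0.10, adjusted p = 3.7e-04), and a second probe, marked on replicate 1, gave -0.55 and -0.35 on the other arrays. Its close relative usp28 had 0.17, 0.42 and 0.27 and rose by 0.29 (SE 0.09, adjusted p = 0.0338), so this related pair was called in opposite directions, though the usp28 call ended without replicate 2 (0.22, adjusted p = 0.215) or replicate 3 (0.29, adjusted p = 0.110). The gene usp9, a large deubiquitinase, had 0.56, 0.41 and 0.41 and rose by 0.46 (SE 0.08, adjusted p = 0.00391). By their brightest tested probe the remaining 14 lay between -0.15 and 0.23. A dimmer usp33 probe rose (0.28, adjusted p = 0.0383, against 0.15 for the brightest). For usp5 a dimmer probe gave 0.26 (adjusted p = 0.0513), against -0.14 for the brightest. The 14 include usp6nl (0.03), a regulator of Rab GTPases that entered by name, and usp39 (-0.02), a splicing factor without protease activity.

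In the UCHL class, uchl3 had levels of 12.29, 12.30 and 12.42 in morphants, against 11.89, 11.84 and 11.85 in wild type. It rose by 0.47 (SE 0.08, adjusted p = 0.00329), its second probe rose by 0.51 (adjusted p = 0.00321), and the groups did not overlap. The proteasome-bound enzyme gene uchl5 had -0.02, -0.15 and 0.03 (mean -0.05, adjusted p = 0.696). The neuronal gene uchl1 was not tested because its spot was marked on replicate 1. It gave 0.85 and 0.97 on replicates 2 and 3, and 1.00 (adjusted p = 2.4e-04) with the marked spot kept, while the neuronal markers elavl3 (0.17, adjusted p = 0.203) and neurod1 (0.07, adjusted p = 0.549) did not pass.

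Of the 4 OTU genes, otud7b, a restraint on NF-kB signalling in mammals, had levels of 10.66, 10.53 and 10.41 in morphants, against 10.15, 9.67 and 9.74 in wild type, and rose by 0.68 (SE 0.09, adjusted p = 0.00107). A dimmer otud7b probe gave -0.18 (adjusted p = 0.164), and a further one, marked on replicate 1, gave 0.92 and 0.39, so 2 of its 3 probes were higher. The gene otud3 fell by 0.24 (SE 0.08, adjusted p = 0.0431) with a very even -0.23, -0.24 and -0.26, but its levels overlapped and leaving out replicate 1, 2 or 3 ended its call (adjusted p = 0.0742, 0.166 and 0.125). The gene otud5a had -0.54, -0.31 and 0.02 (mean -0.28, adjusted p = 0.0893) and passed without replicate 3 (-0.42, adjusted p = 0.0449), and otud6b had 0.01 (adjusted p = 0.913).

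**Figure D4:**
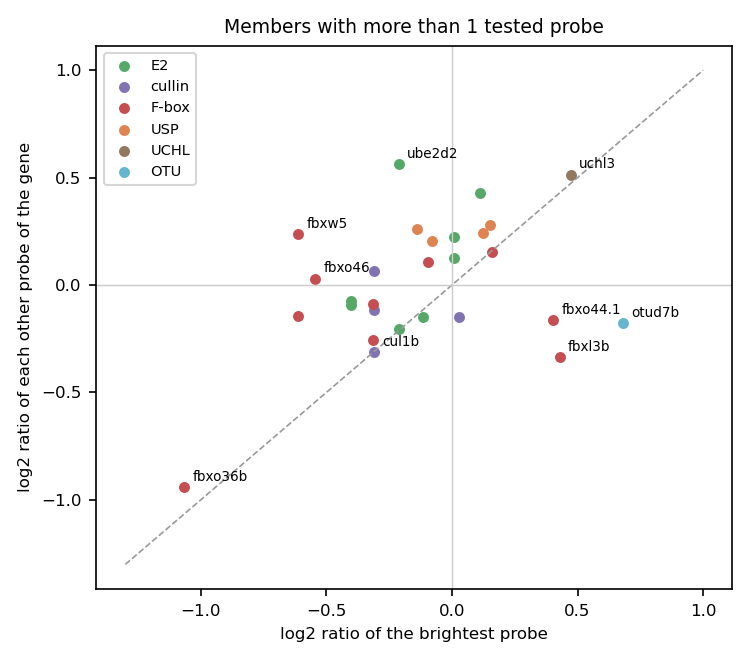
Log2 ratio of each further tested probe of a member against that of its brightest probe, for the 21 members with several tested probes, coloured by class, with the line of equal values dashed. All probes of uchl3 and fbxo36b lie near the line, while fbxw5, otud7b, ube2d2, fbxl3b, fbxo46 and fbxo44.1 are among those with probes on both sides of 0.

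Agreement between probes was limited. Of the 21 members with several tested probes, 10 had all probes on the same side of 0 and 11 had the same call from all. Among the 9 of these that were called, all probes had the same sign in 4, which were fbxo22, fbxo36b, ube2wb and uchl3. The other called members in this set, cul1b, fbxo44.1, fbxo46, fbxw5 and otud7b, each had a probe of opposite sign. In 8 pairs of paralogs with both copies tested, 0 pairs were called in opposite directions, and in fbxo36 both copies fell. Levels of the 3 morphant and 3 wild-type channels did not overlap in 34 members, 35.4%, against 40.7% of all named genes.

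The array held 12 members that could not be tested. Of these, 5 were not well above background on all arrays in either RNA (usp20, usp43a, fbxl8, ube2v1 and fbxo40.2). The other 7 lacked an unmarked spot on some array, most often replicate 1, where 19 of the 158 member probes had none, against 6 and 5 on replicates 2 and 3. With marked spots kept, ube2h, an E2 gene, which was lower on each array (-0.85, -0.88 and -0.84), fell by 0.86 (adjusted p = 2.2e-04), and usp37 rose by 0.41 (adjusted p = 0.0169). Under that setting fbxo45 (0.25), ube2na (0.05) and ube2e2 (-0.09) did not pass. Together with cul4a and uchl1 this adds 4 genes past the threshold to the members. Among tested members, keeping marked spots brought in other probes by which uba1 and ube2r2 were called lower and ube2e3 was no longer called. In all, 17 members rose and 22 fell under that setting. The called share was 37.9% of members, against 40.4% of all named genes.

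Genes that work with these members were read from 9 lists of the ubiquitin pathway, some of them filled by name prefixes that also catch related genes. For comparison, 19.3% of all named genes rose and 22.0% fell. Of 6 ubiquitin and ubiquitin-like modifier genes, 1 rose and 2 fell. The modifier gene ufm1 had -0.80, -0.68 and -0.59 and fell by 0.69 (SE 0.08, adjusted p = 6.1e-04), and sumo2b had -0.50, -0.49 and -0.80 and fell by 0.60 (SE 0.09, adjusted p = 0.00212). The gene nedd8 rose by 0.36 (SE 0.11, adjusted p = 0.0348), a call that ended when replicate 1 (0.21, adjusted p = 0.141) or replicate 3 (0.45, adjusted p = 0.0642) was left out. In the list of NEDD8 enzymes and cullin regulators 3 of 13 rose and 2 fell. Besides uba3, dcun1d2b rose (0.38, adjusted p = 0.0480, or 0.18, adjusted p = 0.201 without replicate 1, and 0.47, adjusted p = 0.102 without replicate 3, and 0.26, adjusted p = 0.0684 with marked spots kept). The NEDD8 protease gene senp8 fell (-0.35, adjusted p = 0.0273, or -0.29, adjusted p = 0.0539 without replicate 1, and -0.29, adjusted p = 0.136 without replicate 2), as did dcun1d3 (-0.47, adjusted p = 0.0115, or -0.34, adjusted p = 0.0818 without replicate 3). Of 5 genes of the COP9 signalosome, which takes NEDD8 off cullins, 40% were called, against 41.3% of all named genes. In this complex 2 genes rose and 0 fell, also at an unadjusted p under 0.05 in limma. These were its catalytic subunit gene cops5 (0.43, SE 0.09, adjusted p = 0.00646, or 0.36, adjusted p = 0.0510 without replicate 3) and cops8 (0.39, SE 0.08, adjusted p = 0.00652).

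Cullin adaptors outside the F-box class had 6 rises and 9 falls among 64, with a median of 0.000508. Their called share was 23.4%, against 41.3% of all named genes. The cullin 4 adaptor gene dcaf13 had 3.21, 2.95 and 3.05 and rose by 3.07 (SE 0.09, 8.39-fold, adjusted p = 9.9e-07), far more than any member. The BTB domain gene kctd15a rose by 0.92 (SE 0.08, adjusted p = 1.5e-04), and asb1 (-0.77, SE 0.10, adjusted p = 7.2e-04) and klhl36 (-0.69, SE 0.11, adjusted p = 0.00181, second probe -0.06) fell. Of 11 genes of the anaphase-promoting complex and its activators, 2 rose and 2 fell. The RING subunit gene anapc11, which docks the E2, rose by 0.32 (SE 0.08, adjusted p = 0.0156) and the activator gene fzr1a fell by 0.37 (SE 0.08, adjusted p = 0.00936), while probes of anapc5 were called in opposite directions (-0.35 and 0.30). The anapc7 rise (0.27, adjusted p = 0.0363) ended with any array left out (adjusted p = 0.128, 0.0847 and 0.102). A second anapc7 probe did not pass (0.05, adjusted p = 0.641). The anapc11 call ended without replicate 2 (adjusted p = 0.0700) or 3 (adjusted p = 0.0733), as did that of the brightest anapc5 probe without replicate 3 (adjusted p = 0.0545). No tested gene of the complex reached the ratio of ube2s, since the 11 lay between -0.37 and 0.32.

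Ligases that do not use cullins changed in both directions. Of 15 HECT and RBR ligase genes 1 rose and 5 fell, and of 35 RING ligase genes 4 rose and 8 fell. Their called shares were 40% and 34.3%, against 41.3% of all named genes. Among the falls were the RBR ligase genes rnf144ab (-0.50, SE 0.11, adjusted p = 0.00944, second probe -0.15) and arih1 (-0.44, SE 0.10, adjusted p = 0.0111, or -0.34, adjusted p = 0.0800 without replicate 3), both of a type that uses E2 enzymes like that of ube2l3a. The RING ligase gene rnf41 was 2.03-fold lower in morphants (-1.02, SE 0.08, adjusted p = 7.2e-05). The SUMO ligase gene pias4b fell by 0.60 (SE 0.09, adjusted p = 0.00186), though its second probe did not pass (-0.18, adjusted p = 0.107). The gene rchy1 rose by 0.35 (SE 0.08, adjusted p = 0.0115, or 0.31, adjusted p = 0.0679 without replicate 3). In the SUMO list 2 of 10 rose and 2 fell. The activating enzyme gene sae1 rose by 0.39 (adjusted p = 0.00741, or 0.0524 without replicate 3) and the protease gene senp5 by 0.31 (adjusted p = 0.0184, or 0.0716 and 0.0777 without replicates 2 and 3). Of 17 deubiquitinase genes of further families, 23.5% were called, against 41.3% of all named genes. In this list 4 genes rose and 0 fell, with 0 lower at an unadjusted p under 0.05 in limma as well. Besides cops5, which is also in the COP9 list, those that rose include mysm1, a histone deubiquitinase gene (0.43, SE 0.11, adjusted p = 0.0184, or 0.48, adjusted p = 0.0719 without replicate 3).

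The RING ligase gene mdm2 had levels of 14.71, 14.74 and 14.74 in morphants, against 16.05, 16.02 and 15.88 in wild type. The groups did not overlap and the gene was 2.39-fold lower in morphants (-1.25, SE 0.08, adjusted p = 3.2e-05). With median centring it did not pass (-1.03, adjusted p = 0.111).

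**Figure D5:**
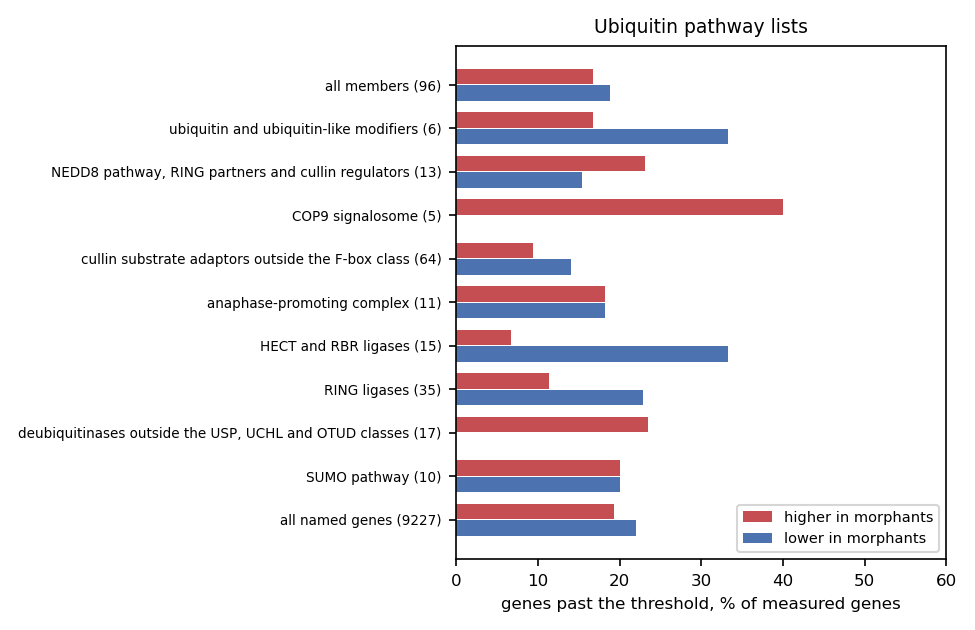
Share of tested genes past the threshold that were higher (red) or lower (blue) in morphants, in percent, for all members, for 9 lists of the ubiquitin pathway and, at the bottom, for all named genes, with the number of tested genes in parentheses. The members had 16.7% higher and 18.8% lower, beside 19.3% and 22.0% of all named genes, and cullin adaptors outside the F-box class had 9.38% and 14.1%.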

How the data were processed

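Each of 3 Agilent arrays (design 019161) held morphant and wild-type RNA. The authors measured spots in Agilent Feature Extraction, version 8.5.1.1 per the submitters' processing notes and 10.5.1.1 per the file headers. The deposited files hold median pixel intensity values per spot and dye with their local background, plus Agilent's log10 ratio (Cy5 to Cy3), as the file headers state. The deposited value table repeats these log10 ratios, with the sign of replicate 3 turned and each column's median at 0. Directions follow the dyes named in the labels.

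Median intensities were background-corrected with normexp (offset 50) and loess-normalized within arrays in limma 3.58.1 (R 4.3.3). Outlier-marked spots and controls had weight 0, and the ratio of replicate 3 was turned. An offset of 50 pulls ratios of dim probes toward 0. Probes well above background on all 3 arrays in either RNA, with an unmarked spot on each, were tested against 0 with lmFit and eBayes (two-sided, Benjamini-Hochberg adjustment). The 3 arrays limit the precision. Channel levels are given after loess and Aquantile normalization. No member spot was saturated. Alternatives were median centring, an offset of 16, Agilent log ratios, other filters on dim or marked spots, the mean of probes, a dye term and leaving out each array.

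Accessions were matched to the RefSeq gene table of assembly GRCz12tu, giving 16770 named probes. The arrays' own build is older, so no coordinates are given. Members and lists were chosen with earlier results of these data known. Named genes are all tested members of the small classes, up to 5 rises and 5 falls in each large class, members with opposed probes or paralogs, the 2 largest rises and falls of each list, and grna. Some genes and 1 list are not reported here.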

Additional observations from a re-analysis of the deposited data

How the results depend on the processing

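With each array centred on its median in place of loess, the median of all named genes moved to 0.13, 0 members rose and 3 fell. Class medians were then 0.50 (E1), 0.18 (E2), 0.25 (cullin), 0.15 (F-box), 0.16 (USP), 0.38 (UCHL) and 0.0504 (OTU), or 0.36, 0.04, 0.12, 0.02, 0.03, 0.25 and -0.08 relative to that shift. The USP median was 0.0221 with Agilent's log ratio and 0.0445 with the mean of a gene's probes. With marked spots kept, the cullin median was -0.28 and the UCHL median 0.47, each with 1 more gene. That cullin median was the value of cul4b, which moved from 0.03 to -0.28 on a brighter probe. A brighter probe also stood for uba1, which turned to -0.50, and for ube2r2, which turned to -1.28. Leaving out 1 array gave 8 to 15 members that rose, 14 to 15 that fell and a USP median of 0.00842 to 0.0206. The called share was then 24% to 30.2% of members and 27.7% to 36.6% of all named genes. All 34 called members kept their sign in every setting run, and 13 were called in every setting other than median centring, of which 3 were called there too. The cause of calls lost was not tested, though leaving out an array also leaves fewer samples. Other settings gave 11 to 20 rises and 13 to 22 falls among members. They called 25% to 37.9% of members and 31.8% to 45.6% of all named genes. A dye term gave 11 rises and 13 falls, 25% of members against 31.8% of all named genes, and kept 24 of the 34 calls. The calls that it ended were those of ube2c, ube2d1a, ube2e3, cul1b, fbxl3a, fbxl15, fbxo22, fbxo36a, otud3 and usp28. Slide as a random block was attempted, but limma's duplicateCorrelation stopped with an error on these 3 arrays and gave no correlation. Without replicate 1 the arrays are those of 1 slide. The test of array ratios against 0 is itself a paired analysis, so that a replicate block on top of it leaves nothing to estimate. Dim probes lie near the background, which limits their ratios.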
